A study of Mus musculus with 4 samples.

Results

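The expression of 40 genes for peroxisomal enzymes and for the proteins that build peroxisomes was examined in injured mouse kidneys with and without tubular Apela. The genes were chosen by symbol, as a set of peroxisomal oxidation enzymes, hydrogen peroxide forming and removing enzymes, membrane proteins and peroxins, and all 40 were found among the 54078 genes of the deposited table. RNA-sequencing was done on kidneys of adult male mice at day 3 after both kidneys had been clamped for 30 min (bilateral I/R), and the comparison asked which genes differ in the injured kidney when the tubule lacks Apela, the gene of the peptide hormone Elabela. The KO group carried Apela flox/flox with a Cre transgene driven by the Ksp-cadherin promoter, which the study gives as specific to renal tubular epithelium, and the WT group was made of Apela flox/flox Cre-/- littermates. Both groups had the floxed allele and the same injury, and no uninjured kidney was among the samples. Each group had 2 libraries, and each library was a pool of RNA from 3 mice, so n = 2 counts pools, and p-values measure the spread between pools and not between single mice. The labels give the strain as C57BL/6 x 129S4/SvJae, while the methods of the study give C57BL/6. The design text of the series names adipose tissue, whereas its title and the labels of every sample name the kidney.

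Peroxisomes are small organelles that shorten very long and branched fatty acids, break down phytanic acid and D-amino acids, and clear the hydrogen peroxide that their own oxidases release. In the kidney they are most abundant in the proximal tubule, a segment that lives on fatty acid oxidation and is the main site of damage after ischemia. Peroxisomes hold no DNA, so their proteins are made in the cytosol. Peroxins import many enzymes of the matrix by a short address at an end of the protein, whereas membrane proteins are inserted by another route.

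The address was looked for in the coding sequences of the members. The common form is a C-terminal tripeptide (serine, alanine or cysteine, then a basic residue, then leucine or methionine), which is bound by the receptor Pex5. In the coding sequences of GENCODE M21, 16 of the 40 members ended in such a tripeptide (40%), against 112 of 21501 coding genes (0.521%). All 16 were among the 26 enzymes and carriers (61.5%), and none of the 14 peroxins and membrane proteins had one. Serine-lysine-leucine was the ending of 6 members, Acot8, Ddo, Ech1, Ehhadh, Mlycd and Nudt7, and alanine-lysine-leucine that of 5, Crat, Hsd17b4, Idh1, Pecr and Scp2. The last 27 coding bases are shown for the most abundant enzyme of this kind, Ehhadh, for the 4 oxidases of amino and hydroxy acids, and for Cat and Ephx2, whose endings differ from the pattern in 1 residue. Capitals mark the last 3 codons before the stop codon.
Ehhadh: gcaggaccccatagcAGCAAACTGtga
Ddo: acccctgcttccttgTCGAAGCTGtag
Dao: tccaggttgcctcccTCCCACCTCtga
Hao2: gacctgattcagttcTCCAGATTAtaa
Pipox: tctacgctgagcaaaGCCCACCTTtga
Cat: gctgcgaagggaaaaGCTAACCTGtaa
Ephx2: aacccatcagtgaccTCCAAGATTtag
All 7 stretches lie in a coding exon of GRCm38, the last of each transcript. They are at chr16:21762084-21762110 on the minus strand for Ehhadh (exon 7), chr10:40648015-40648041 on the plus strand for Ddo (exon 5), chr5:114024880-114024906 on the plus strand for Dao (exon 11) and chr3:98875309-98875335 on the minus strand for Hao2 (exon 9). For the others the places are chr11:77881124-77881150 (Pipox, minus strand, exon 8), chr2:103454756-103454782 (Cat, minus strand, exon 13) and chr14:66084682-66084708 (Ephx2, minus strand, exon 19). Cat ends in alanine-asparagine-leucine and Ephx2 in serine-lysine-isoleucine. Other endings that differ in 1 residue are those of Amacr (as Cat), Acox2 (proline-lysine-leucine), and Acox3 and Prdx5 (serine-glutamine-leucine).

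The rarer address is an N-terminal stretch of 9 residues that Pex7 reads. The pattern searched was arginine or lysine, then leucine, valine, isoleucine or glutamine, 5 residues of any kind, histidine or glutamine, and leucine, alanine or phenylalanine, within the first 40 residues. It was found in 4 members, the thiolases Acaa1a and Acaa1b, the phytanoyl-CoA hydroxylase Phyh and the membrane-shaping peroxin Pex11a, and in 1.11% of all coding genes. The codons are shown for the 3 enzymes, which reach the matrix by this route, with those of the fixed residues in capitals.
Acaa1a: CGGCTGcaggtagtgctgggcCACCTG
Acaa1b: CGGCTGcaggtagtgctgggtCACCTG
Phyh: CGGCTGcaggtccttctgggaCACCTC
These are at chr9:119341521-119341547 on the plus strand for Acaa1a (residues 3 to 11), chr9:119156962-119156988 on the minus strand for Acaa1b (residues 3 to 11) and chr2:4919094-4919120 on the plus strand for Phyh (residues 9 to 17). Acaa1a and Acaa1b are near copies, with 1231 of 1275 coding bases (96.55%) and 406 of 424 residues identical, so the reads of this pair may have been divided between them by the counting, and their separate values are uncertain to that extent.

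Between 16045724 and 16927742 reads per pool fell on genes, and the members had between 221 and 33646 reads in a pool. Apela itself checked the labels, with an FPKM (fragments scaled by gene length and library total) of 5.27 and 4.57 in the WT pools, against 0.536 and 0.245 in the KO pools. On the log2 scale the KO mean lay -2.62 from the WT mean with a standard error (SE) of 0.22, the groups did not overlap, and limma gave a Benjamini-Hochberg adjusted p of 0.466 over the 15414 genes tested. All 13 proximal tubule markers passed the filter, with a summed FPKM of 11960 and 6659 in the WT pools, against 7908 and 11880 in the KO pools, of which the androgen-regulated Kap made up 4387 to 9316. The adipose markers summed to between 0.375 and 8.27, with Ucp1 at 0 in every pool and Adipoq, which defines fat cells, at 0 in 3 pools and at 0.268 in KO replicate 2.

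WT replicate 2 stood apart from the other 3 pools in the members. It was the lowest pool for 32 of the 40 members (80.0%) and for 30.7% of the 15414 genes tested, and the FPKM summed over the members was 4007 and 2395 in the WT pools, against 4065 and 4632 in the KO pools. WT replicate 1 exceeded WT replicate 2 in 38 of 40 members, by a median of 0.53 on the log2 scale, where the median over all genes tested was 0.0045. This was not particular to the members. It also held in 13 of 13 proximal tubule markers (median 0.38) and in 32 of 37 tested peroxisomal genes outside the 40 (0.33). The same was seen in 4 of 4 thick limb and distal tubule markers, but in 0 of 6 macrophage, 0 of 5 endothelial and 1 of 7 tubular injury markers. The summed FPKM of 6 macrophage markers was 143 in WT replicate 1 and 335 in WT replicate 2, against 200 and 182 in the KO pools, with 5 of the 6 highest in WT replicate 2, and Havcr1, a marker of damaged proximal tubule, stood at 210, 393, 249 and 105 in the same order. Of the 7 tubular injury markers, Havcr1 among them, 4 were highest in WT replicate 2, while 1, Lcn2, was lowest there. The part of such differences in the values below was not tested. In whole kidney, fewer cells of a type cannot be told apart from less RNA per cell. The main results are therefore given with and without WT replicate 2.

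**Figure D1:**
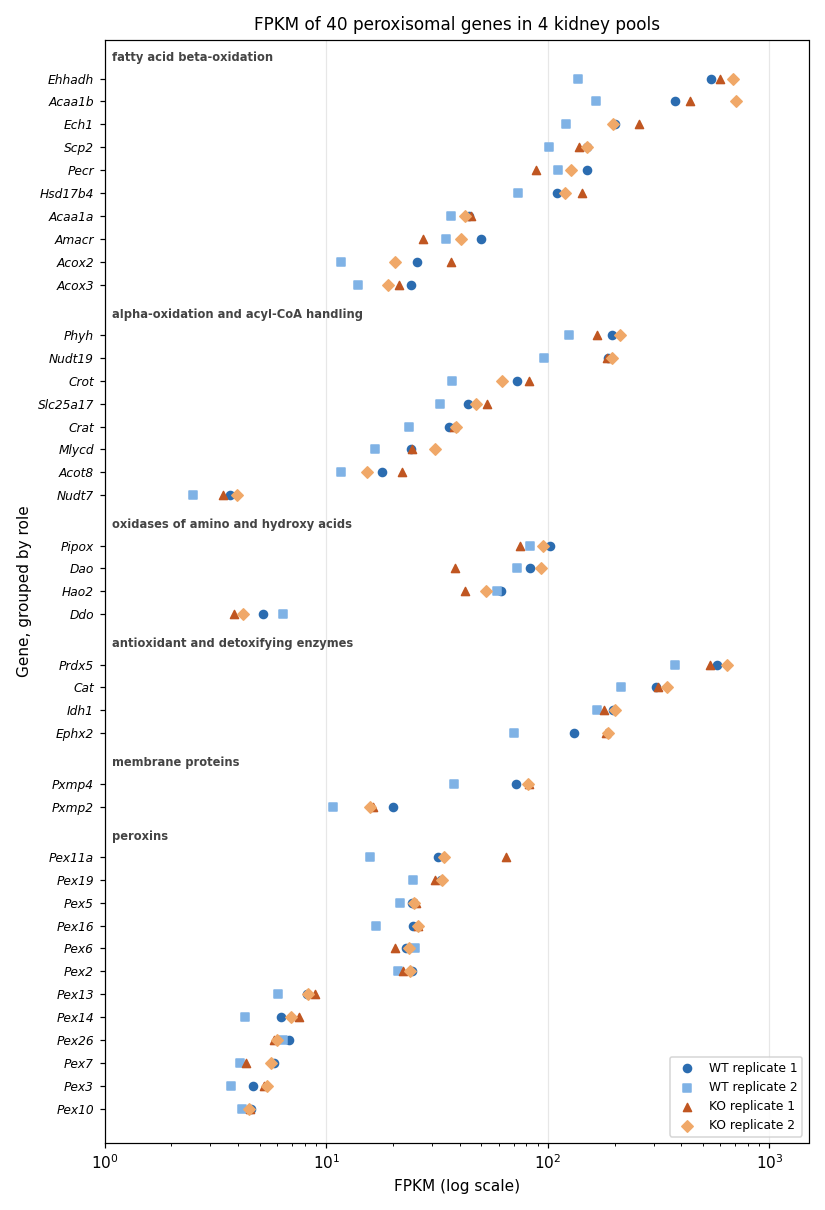
FPKM (log axis) of the 40 members in the 4 pools, 1 symbol per pool, grouped by role and ordered by mean level. Mean levels run from 3.38 for Nudt7 to 534 for Prdx5, and the squares of WT replicate 2 are the leftmost symbols for 32 members.

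Peroxisomal genes covered a wide range of levels. Mean FPKM over the 4 pools ran from 3.38 for Nudt7 to 534 for Prdx5, with a median of 37.3, and all 40 members passed the filter of a mean of at least 0.5. FPKM here divides by the length of the merged exons of a gene, which is long for Acox3 (11521 nt) and Pex7 (12092 nt). The 12 members at 100 FPKM or more were all enzymes, led by Prdx5, Ehhadh, Acaa1b and Cat. Of the 8 members under 10 FPKM, 6 were peroxins (Pex3, Pex7, Pex10, Pex13, Pex14 and Pex26), beside Ddo and Nudt7. No peroxin had a mean above 36.5 FPKM, the level of Pex11a.

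No member passed the threshold between KO and WT pools. With limma on log2(FPKM + 0.5) and Benjamini-Hochberg adjustment, 0 of 40 members and 0 of 15414 genes (0.0%) had an adjusted p under 0.05, also with voom weights in place of plain log2 values, and the adjusted p-values of the members ran from 0.785 to 0.989. This does not show that the groups were alike. With 2 pools on each side and adjustment over 15414 genes, limma gave even the targeted gene Apela a Benjamini-Hochberg adjusted p of 0.466. At an unadjusted p under 0.05, 1 member was higher in KO pools, Ephx2, where 3.29% of all genes were, and 1 was lower, Ddo, where 3.03% were, which puts the members' 5.00% below the share of all genes, 6.32%. With voom weights on the recovered reads there were 5 such members of 40, and 6.29% of all genes.

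The direction of the differences was uneven. The fold change was above 0 in 32 members and below 0 in 8, with a median of 0.27 on the log2 scale beside 0.0071 for all genes tested. Both KO pools lay above both WT pools in 15 members (37.5%), where 19.7% of all genes did, and below them in 3 (7.5%; Ddo, Hao2 and Pex26), where 18.1% did. The median and the count of higher members rested on WT replicate 2. Without it the median was 0.011 and 21 of 40 members were higher, while without WT replicate 1 the median was 0.54 and 33 were higher. Against WT replicate 1 alone, both KO pools were higher in 15 members, lower in 11 and on either side in 14, near the shares of all genes, 34.3%, 32.0% and 33.7%. Over the 4 fits that leave out 1 pool, 21 members stayed above 0, 6 stayed below 0 and 13 changed direction.

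**Figure D2:**
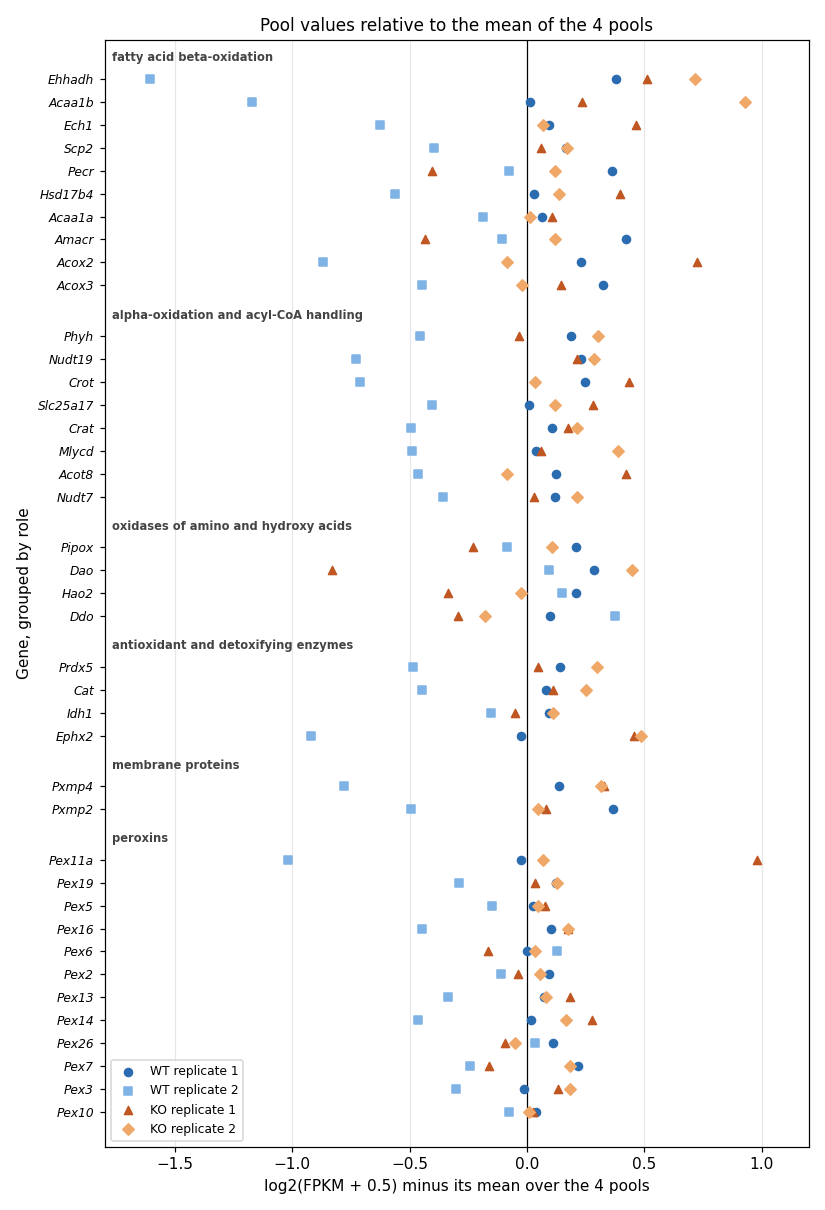
Each pool's log2(FPKM + 0.5) minus the mean of the 4 pools, 1 symbol per pool, for the 40 members grouped by role. The squares of WT replicate 2 lie lowest in 32 members and the triangles of KO replicate 1 in the other 8, among them the 4 oxidases of amino and hydroxy acids.

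The plot of pools around their mean showed 2 patterns. In all 32 members with a higher KO mean the lowest pool was WT replicate 2, and in all 8 with a lower KO mean it was KO replicate 1. These 8 were the oxidases Dao, Ddo, Hao2 and Pipox, the beta-oxidation enzymes Pecr and Amacr, and the peroxins Pex6 and Pex26. A low WT pool by itself pulls the WT mean down, so the measures are linked. Over all genes tested, 53.7% of the 7917 with a higher KO value were lowest in WT replicate 2, and 41.1% of the 7497 with a lower one were lowest in KO replicate 1.

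Enzymes of beta-oxidation, which cut fatty acyl-CoA by 2 carbons a round, held the widest spread. The KO value was higher in 8 of 10, with a median log2 fold change of 0.38 (0.041 without WT replicate 2). Ehhadh, the bifunctional enzyme of the middle steps, had an FPKM of 543 and 137 in the WT pools, against 597 and 687 in the KO pools. Its 2 WT pools differed 3.97-fold, the widest gap between replicates of any member, while WT replicate 1 came within 1.10-fold of KO replicate 1. The log2 fold change of 1.23 (SE 0.68; limma, Benjamini-Hochberg adjusted p = 0.798) was 0.24 without WT replicate 2.

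Acaa1b, 1 of the 2 thiolases that release acetyl-CoA in the last step, had an FPKM of 374 and 164 in the WT pools, against 437 and 707 in the KO pools. Its groups did not overlap, and both KO pools also lay above WT replicate 1. The log2 fold change was 1.16 (SE 0.48; limma, Benjamini-Hochberg adjusted p = 0.786) and 0.57 without WT replicate 2. Its near copy Acaa1a had 43.9 and 36.7 in the WT and 45.2 and 42.3 in the KO pools, overlapping groups within a 1.23-fold range. Levels of this pair thus differed far more between pools for Acaa1b (4.30-fold) than for Acaa1a.

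Hsd17b4, the bifunctional enzyme for branched and very long chains, had an FPKM of 110 and 73.0 in the WT pools, against 142 and 119 in the KO pools. The groups did not overlap, with a log2 fold change of 0.53 (0.24 without WT replicate 2). Ech1, an isomerase for unsaturated chains, stood at 200 and 121 in the WT pools, against 259 and 196 in the KO pools, so KO replicate 2 lay just under WT replicate 1. Acox2, an oxidase for branched chains and bile acid precursors, varied within both groups, at 25.7 and 11.7 in the WT pools, against 36.4 and 20.5 in the KO pools. Its log2 fold change of 0.64 (SE 0.46) was 0.086 without WT replicate 2 and 0.23 without KO replicate 1. Acox3 (0.12) and Scp2 (0.23), a branched-chain oxidase and a thiolase fused to a sterol carrier, had overlapping groups and turned to -0.26 and -0.053 without WT replicate 2. Of the 100-base windows of Scp2, 32.2% are also found in its pseudogene Scp2-ps2, which leaves its value uncertain to that extent.

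Pecr and Amacr went the other way. Pecr, an enoyl-CoA reductase, had an FPKM of 151 and 111 in the WT pools, against 88.5 and 127 in the KO pools. Amacr, the racemase that readies branched chains for oxidation, had 49.97 and 34.5 in the WT and 27.4 and 40.5 in the KO pools. In both genes KO replicate 1 was lowest and WT replicate 1 highest, and the groups overlapped. The log2 fold changes of -0.29 and -0.31 became -0.50 and -0.58 without WT replicate 2, but -0.068 and -0.051 without WT replicate 1, and -0.026 and -0.037 without KO replicate 1.

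Alpha-oxidation and the handling of acyl-CoA had the narrowest range of fold changes among the role groups. All 8 members had a higher KO value, between 0.24 and 0.50 on the log2 scale, and all 8 were lowest in WT replicate 2. Without that pool the median went from 0.39 to 0.032, and Phyh and Crot were below 0. Phyh, which starts the breakdown of phytanic acid and is the most abundant of the group, had an FPKM of 195 and 124 in the WT pools, against 167 and 211 in the KO pools. The KO pools of Phyh lay on either side of WT replicate 1.

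Groups did not overlap for 3 of these 8 genes, all with the KO pools above, where 19.7% of all genes lay this way and 18.1% the other way. Slc25a17, the membrane carrier for coenzyme A and other cofactors, had an FPKM of 43.6 and 32.6 in the WT pools, against 52.9 and 47.2 in the KO pools (log2 fold change 0.40, SE 0.18). Mlycd, which decarboxylates malonyl-CoA, had 24.1 and 16.6 against 24.5 and 30.8 (0.45, SE 0.23). Crat, a carnitine acyltransferase for short chains, had 35.9 and 23.5 against 37.7 and 38.6 (0.39, SE 0.22). Slc25a17 and Mlycd kept 0.19 and 0.18 without WT replicate 2, and Crat 0.088. The other 5 overlapped, Phyh among them. Crot, the acyltransferase for medium chains, and the thioesterase Acot8 were highest in KO replicate 1, and the coenzyme A diphosphatases Nudt19 and Nudt7 in KO replicate 2. In Nudt19, 35.0% of the exon bases overlap a gene on the opposite strand, and no source used here says whether the counting used strand.

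The 4 oxidases of amino and hydroxy acids, which form hydrogen peroxide as Acox2 and Acox3 do, made up 4 of the 8 members with a lower KO value. They had a lower KO value, with a median log2 fold change of -0.37 that was -0.36 without WT replicate 2, and -0.081 without KO replicate 1, their lowest pool. All 4 carry the C-terminal address, as Ehhadh and Ech1 do. As a whole, members with this address were higher in KO in 11 of 16 (median 0.29), and without WT replicate 2 in 8 of 16 (median -0.0056).

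Ddo, the D-aspartate oxidase, had an FPKM of 5.20 and 6.41 in the WT pools, against 3.84 and 4.21 in the KO pools. Both KO pools lay below both WT pools, and WT replicate 2 was the highest. The log2 fold change was -0.47 (SE 0.15; limma, unadjusted p = 0.0271, Benjamini-Hochberg adjusted p = 0.785) and lay between -0.61 and -0.33 in the fits without 1 pool, although at an FPKM this low the added 0.5 makes the change look smaller. Hao2, an oxidase of long-chain hydroxy acids, had 61.7 and 59.2 in the WT pools, against 42.1 and 52.4 in the KO pools, again with no overlap. Its log2 fold change was -0.36 (SE 0.15; limma, unadjusted p = 0.0686, Benjamini-Hochberg adjusted p = 0.788), with a range of -0.52 to -0.20 over the 4 left-out fits.

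Dao and Pipox overlapped between groups. Dao, the oxidase of neutral D-amino acids, had an FPKM of 83.2 and 72.8 in the WT pools, against 38.1 and 93.2 in the KO pools, so the KO pools were the lowest and the highest of the 4. Its log2 fold change went from -0.38 to 0.26 without KO replicate 1. Pipox, which oxidizes sarcosine and pipecolic acid and is the most abundant of the group, had 102 and 83.0 in the WT and 75.1 and 94.8 in the KO pools. Its change of -0.12 turned to 0.024 without WT replicate 1 and 0.044 without KO replicate 1.

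Enzymes that remove hydrogen peroxide or detoxify had higher KO values in 4 of 4, with a median of 0.35 (0.065 without WT replicate 2). Prdx5, a peroxiredoxin found in peroxisomes, mitochondria and cytosol and the most abundant member, had an FPKM of 577 and 374 in the WT pools, against 540 and 644 in the KO pools. Cat, the catalase that defines the organelle, had 308 and 213 against 314 and 346. In Prdx5, 19.1% of the exon bases lie over a gene on the opposite strand, Trmt112. For Cat the groups did not overlap, yet KO replicate 1 exceeded WT replicate 1 only 1.02-fold, and the log2 fold change of 0.36 was 0.0998 without WT replicate 2. Idh1, a source of NADPH, stayed within a 1.2-fold range over the 4 pools.

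Ephx2 had the smallest unadjusted p among the members with a higher KO value. This soluble epoxide hydrolase, which turns epoxides of arachidonic acid into diols, had an FPKM of 131 and 70.0 in the WT pools, against 182 and 186 in the KO pools. The KO pools were 1.40-fold and 1.43-fold above the higher WT pool and KO replicate 1 stood at 0.98 of KO replicate 2. The WT mean was 100.3 ± 42.9 (SD, n = 2) and the KO mean 184 ± 2.63 (SD, n = 2). The log2 fold change was 0.94 (SE 0.32; limma, unadjusted p = 0.0359, Benjamini-Hochberg adjusted p = 0.785), and 0.50 without WT replicate 2. With each pool left out in turn, the log2 fold change of Ephx2 ran from 0.50 to 1.39.

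**Figure D3:**
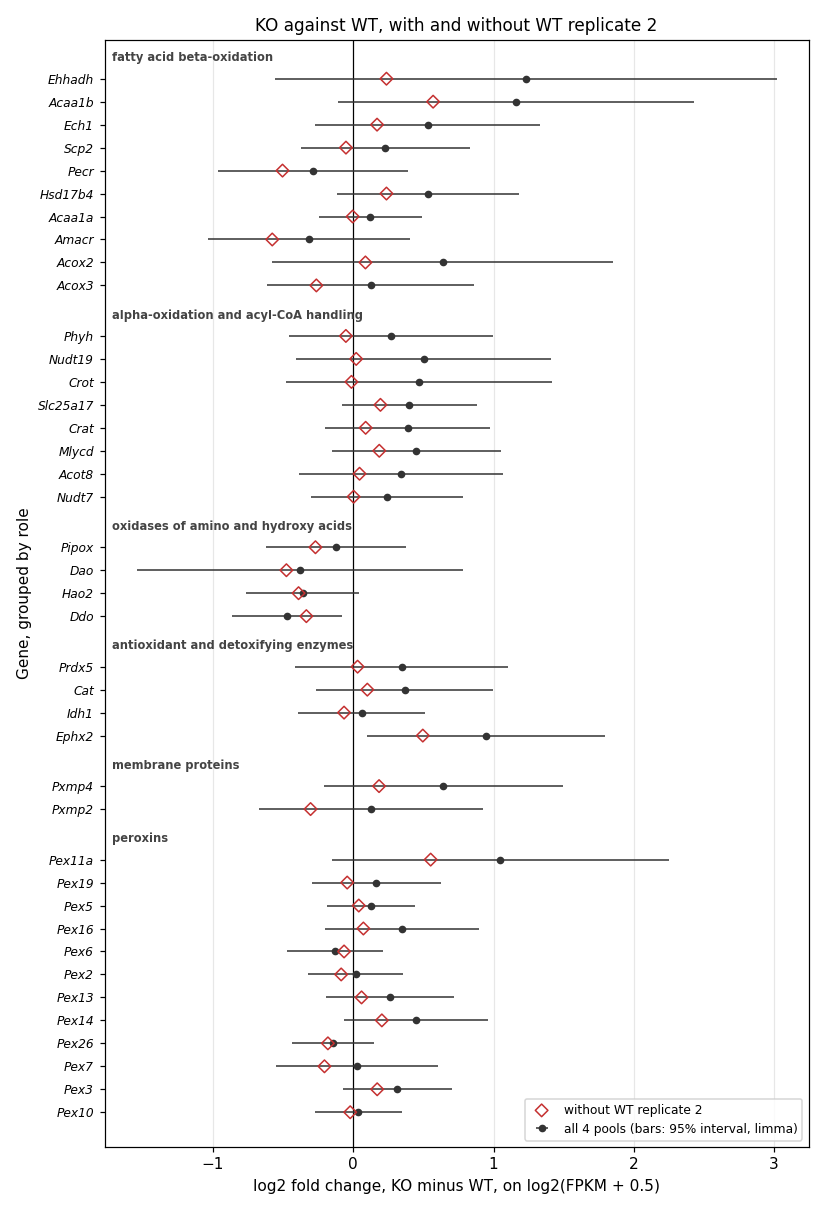
Log2 fold change of the 40 members, KO minus WT, on log2(FPKM + 0.5). Filled points with bars are the estimate and 95% interval from limma on all 4 pools, open diamonds the value without WT replicate 2, which brings the median from 0.27 to 0.011. Only the bars of Ephx2 and Ddo leave out 0, before adjustment.

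Of the membrane proteins, Pxmp4 had an FPKM of 71.7 and 37.7 in the WT pools, against 81.8 and 81.1 in the KO pools. Its KO pools nearly coincided above WT replicate 1, and the log2 fold change of 0.64 was 0.18 without WT replicate 2. Pxmp2, which forms a pore for small metabolites, had 19.9 and 10.7 in the WT and 16.2 and 15.8 in the KO pools, so the WT pools enclosed the KO pools. Both genes had a WT gap of about the same size, 1.90-fold and 1.86-fold.

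Peroxins other than Pex11a had log2 fold changes from -0.14 to 0.44, a narrower range than that of all members, -0.47 to 1.23. Including it, 10 of the 12 peroxins were higher in KO, with a median of 0.14 (0.0083 without WT replicate 2). Pex11a, which elongates peroxisomes before they divide, had an FPKM of 31.8 and 15.7 in the WT pools, against 64.5 and 33.97 in the KO pools. The groups did not overlap, although KO replicate 2 was only 1.07-fold above WT replicate 1 while KO replicate 1 was 2.03-fold above it. Its log2 fold change was 1.05 (SE 0.46; limma, Benjamini-Hochberg adjusted p = 0.797), and 0.55 without WT replicate 2.

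Import itself rests on receptors, a docking complex and ubiquitin ligases. Pex5, the receptor for the C-terminal address, had an FPKM of 24.4 and 21.5 in the WT pools, against 25.3 and 24.8 in the KO pools, and Pex7, the receptor for the N-terminal one, had 5.78 and 4.07 against 4.34 and 5.64. Pex5 did not overlap between groups but spanned only 1.17-fold, and Pex7 overlapped. In the docking complex, Pex14 stood at 6.23 and 4.32 in the WT pools, against 7.56 and 6.95 in the KO pools (log2 fold change 0.44, SE 0.19, and 0.20 without WT replicate 2), with 28.3% of its exon bases over a gene on the opposite strand. Its partner Pex13 had a change of 0.26 (0.059 without WT replicate 2). The ubiquitin ligases Pex2 and Pex10 had changes of 0.017 and 0.035, and Pex10 was the steadiest member of all, within 1.09-fold over the 4 pools.

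Receptor recycling was the branch of import with lower KO values. Pex6, an ATPase that pulls the receptor back out, had an FPKM of 23.0 and 25.2 in the WT pools, against 20.4 and 23.5 in the KO pools. Its membrane anchor Pex26 had 6.77 and 6.41 against 5.82 and 6.01, with no overlap but a range of 1.16-fold. Their log2 fold changes were -0.13 and -0.14, and both stayed below 0 with each pool left out. Among the peroxins that insert membrane proteins, Pex3 (0.31) and Pex16 (0.35) did not overlap between groups, and Pex19 (0.16) did. Pex3 kept 0.17 without WT replicate 2, Pex16 0.072, and Pex19 turned to -0.044.

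Peroxisomal genes outside the 40 were read from a second list of 43, of which 37 passed the filter. The KO value was higher in 25 and lower in 12, with a median log2 fold change of 0.13 (-0.026 without WT replicate 2), and WT replicate 2 was the lowest pool in 25 of 37 (67.6%). None had an adjusted p under 0.05 in limma, and at an unadjusted p under 0.05 there was 1 higher gene and 1 lower gene. The lower one was Far1, a reductase of ether lipid synthesis, with an FPKM of 18.01 and 16.7 in the WT pools against 12.8 and 13.2 in the KO pools, with a log2 fold change of -0.40 (limma, unadjusted p = 0.0165, Benjamini-Hochberg adjusted p = 0.760) and -0.45 without WT replicate 2.

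Many of the members are known targets of the nuclear receptor PPAR alpha, so its regulators and non-peroxisomal targets were set beside them. In that list 17 of 18 genes had a higher KO value, with a median log2 fold change of 0.87, and 17 were lowest in WT replicate 2. Without that pool 14 of 18 were higher and the median was 0.22. Ppara itself had an FPKM of 19.0 and 14.8 in the WT pools, against 31.9 and 29.1 in the KO pools, with no overlap and a log2 fold change of 0.84 (0.66 without WT replicate 2; limma, unadjusted p = 0.00433, Benjamini-Hochberg adjusted p = 0.650). The other 2 of this list with an unadjusted p under 0.05 in limma were Plin2, which coats lipid droplets, and Acot2, a mitochondrial thioesterase, at 1.44 and 0.93 on the log2 scale (1.32 and 0.53 without WT replicate 2).

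PPAR alpha with its partner RXR binds a direct repeat of AGGTCA spaced by 1 base. RefSeq promoters of GRCm38.p6 (250 bases before to 50 after the start) were matched for 33 members, with 41 promoters, and searched for AGGTCANAGGTCA on both strands. An exact copy was in none of the 41 and in 0.0396% of all 32851 promoters, and a copy with at most 2 mismatches was in 2 (4.88%) and in 3.86% of all. The 2 promoters were those of Cat and Acox2. Each is shown with 8 bases on either side and the repeat in capitals.
Cat: actctcagAGGTCAGAGAACAccagcagg
Acox2: gctgtcccAGGACAGAGGTGAgtcaagag
The first lies at chr2:103485337-103485365 and the second at chr14:8258810-8258838, both on the minus strand. In Cat the repeat ended at base -192 from the start, and in Acox2 it began at base 10 of the transcript. These matches are letters in a window, and the windows of the members with the widest spread, Ehhadh, Acaa1b and Pex11a, held none at this limit, which says nothing about other stretches of these genes.

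**Figure D4:**
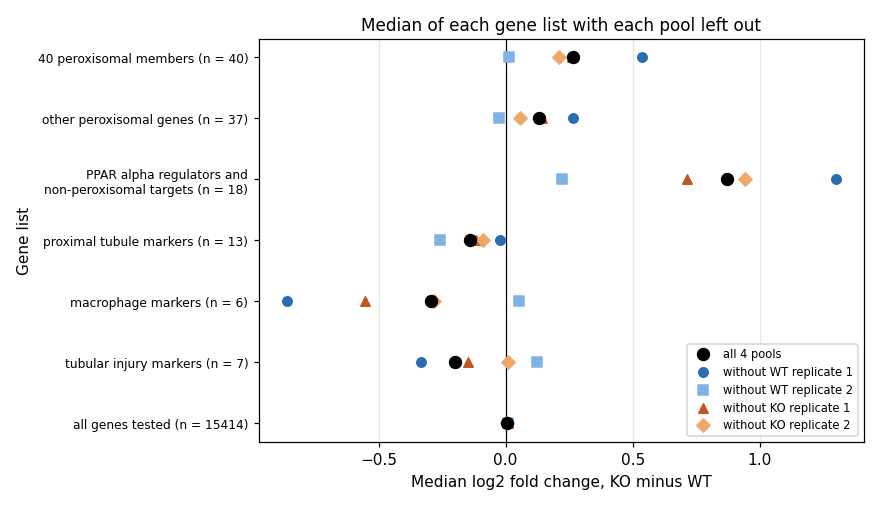
Median log2 fold change, KO minus WT, of the members and of other gene lists, for all 4 pools (black) and with each pool left out. The median of the members moves between 0.011 and 0.54 and that of the PPAR alpha list between 0.22 and 1.30, both lowest without WT replicate 2, while that of all genes tested stays between 0.0050 and 0.00999.

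Proximal tubule markers, which come from the cells with the most peroxisomes, had a median of the other sign. The KO value was higher in 4 of 13 and lower in 9, with a median of -0.14. It was -0.26 without WT replicate 2, with 2 of 13 higher, and -0.023 without WT replicate 1, with 6 of 13 higher. At an unadjusted p under 0.05 in limma there were 2, both lower, the glucose transporter Slc5a2 and the endocytic receptor Lrp2, with log2 fold changes of -0.65 and -0.38, and -0.43 and -0.32 without KO replicate 1. Their lowest pool was KO replicate 1, as for the 4 oxidases, and this held for 6 of the 9 lower markers (66.7%). The median of KO replicate 1 minus KO replicate 2 was -0.31 over the markers, -0.32 over the oxidases and -0.062 over all 40 members. Slc27a2 belongs to both the marker list and the list of other peroxisomal genes. Whether the number of proximal tubule cells has a part in the values of the oxidases was not tested.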

How the data were processed

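Poly(A) RNA of 4 pools was sequenced, 2 per group. The authors deposited FPKM per gene, and the submitters' processing notes name HISAT2 2.0.5, mm10 and GRCm38.p6. The counting tool is not given in the sources used here. FPKM times gene length, divided by the step that 1 read is worth in that pool (58.1 to 62.2), gave whole reads (tolerance 0.01) for 100% of nonzero values. KO and WT were compared by limma (version 3.58.1, R 4.3.3; lmFit, then eBayes with trend; two-sided) after adding 0.5 and taking log2, which shrinks fold changes of low genes. Genes averaging 0.5 FPKM or more entered, 15414 in all, and p-values were Benjamini-Hochberg adjusted over these. The recovered reads of replicates differed beyond counting error (mean chi-square per gene 34.7 in WT, 24.7 in KO).

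The members and lists were chosen with earlier results of these data known. The rule gave values in every pool for Apela, members with an unadjusted p under 0.05, members without overlap and a change of at least 0.5, the highest of each role, and genes of other lists with an unadjusted p under 0.05 (0 among thick limb, collecting duct, endothelial and hepatocyte markers). Other values were added after they were seen. Alternatives were other pseudocounts, filters and scalings, voom weights, a replicate block and each pool left out. Addresses were read from translated GENCODE M21 coding sequences, 1 per gene, in place of RefSeq proteins. Deposited positions were identical to GENCODE M21 for 38 of 40 members. A gene of the list of other peroxisomal genes is not reported here.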

Additional observations from a re-analysis of the deposited data

How the results depend on the processing

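No member or other gene had an adjusted p under 0.05 in limma under any alternative, while between 687 and 1720 genes had an unadjusted p under 0.05. The number of members at an unadjusted p under 0.05 was 2, and became 1 without a filter, 4 with quantile normalization, 5 with voom weights and 0 to 22 with a pool left out. Members without overlap numbered 18 of 40, where 37.8% of all genes did not overlap, and 26 to 36 with a pool left out, where 66.3% to 73.7% of all genes did not, since 3 pools overlap less easily than 4. The median of the members ran from 0.011 to 0.54 over the fits with a pool left out, and was 0.20 when scaling by total reads on genes, chosen after seeing the data, which also moved the median of all genes to -0.057. Quantile normalization turned Idh1 (-0.092) and Pex2 (-0.019), and total read scaling turned Idh1 (-0.014), Pex2 (-0.054), Pex7 (-0.041) and Pex10 (-0.030).

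With a pool left out, 13 members changed direction. Their log2 fold changes then ranged from -0.0046 to 0.25 (Acaa1a), -0.26 to 0.51 (Acox3), -0.013 to 0.94 (Crot), -1.02 to 0.26 (Dao), -0.066 to 0.18 (Idh1), -0.022 to 0.093 (Pex10), -0.044 to 0.37 (Pex19), -0.087 to 0.12 (Pex2), -0.21 to 0.25 (Pex7), -0.053 to 0.59 (Phyh), -0.29 to 0.044 (Pipox), -0.30 to 0.56 (Pxmp2) and -0.053 to 0.51 (Scp2). The cause was not tested.

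With the replicate number as a block, 5 members had an unadjusted p under 0.05 in limma (Acox2, Ddo, Ephx2, Hsd17b4 and Pex11a), as did 932 of all 15414 genes, and 0 an adjusted one. The numbers pair nothing that the labels name, and the deviations of same-numbered pools had a correlation of -0.0017 across genes. Each member had at least 221 reads in every pool. Whether depth or the 2 pools per group limits the precision more was not tested for single members.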

Other observations

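Of 7 tubular injury markers, 3 had an unadjusted p under 0.05 in limma and none an adjusted one. Krt20, a keratin of damaged tubules, had an FPKM of 35.6 and 36.8 in the WT pools, against 59.97 and 61.0 in the KO pools, and Lcn2, the secreted injury marker lipocalin, 133 and 95.2 against 249 and 273. Vcam1, an adhesion molecule of tubules that fail to repair, went the other way, at 14.6 and 31.0 against 10.5 and 2.59. In none of the 3 did the groups overlap, and without WT replicate 2 the log2 fold changes were 0.76, 0.97 and -1.38.

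Plin2, which coats lipid droplets, had an FPKM of 78.4 and 66.5 in the WT pools, against 187 and 206 in the KO pools. Acot2 stood at 32.1 and 18.2 against 51.4 and 42.2, and Cidec, a second lipid droplet protein listed with the adipose markers, at 1.37 and 0.282 against 7.92 and 2.79. All 3 were lowest in WT replicate 2.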
